A study of Mus musculus with 6 samples.

Results

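The 236 autosomal 500 kb bins whose compartment score was furthest above its myoblast level in day 3 myotubes were described here, out of 4727 autosomal bins that held data in all 3 conditions. They were selected on the deposited values themselves. For each autosome and condition, the first principal component (PC1) of the bin-by-bin matrix of interaction correlations was taken, its sign was set so that bins with more protein-coding transcription start sites (TSSs) were positive, and it was divided by its standard deviation (SD) over the chromosome. The members were the 5% of bins with the largest scaled PC1 in day 3 myotubes minus scaled PC1 in myoblasts, a difference called the rise below, so the myoblast and day 3 values of these bins are a description and no test was made on them.

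The matrices came from Hi-C, which ligates DNA ends that lie close together in fixed nuclei, here after HindIII digestion of C2C12 cells. C2C12 is a mouse myoblast line grown from injured thigh muscle of C3H mice. Sub-confluent proliferating myoblasts were harvested from growth medium with fetal bovine serum (Myoblasts, n = 2 samples). Denser cultures were moved to 2% horse serum and harvested after 3 days as Myotubes(Day3) (n = 2), or were then kept to day 7 with 10 µg/mL cytosine arabinoside (AraC), an agent that kills dividing cells (n = 2). No genotype or allele differed between the groups. Myoblasts and myotubes differed in plating density and serum as well as in differentiation, day 3 cultures could still hold undifferentiated myoblasts, and the AraC group differed from day 3 both in time and in drug, so that these parts cannot be told apart. Fewer cells of a type and weaker contacts in each cell cannot be told apart in such cultures either. The 2 replicates of a condition were pooled in the deposited matrix, so each bin had 1 value per condition, with no spread between replicates, no error and no p-value. The matrices hold correlation coefficients without read numbers, and the depth behind a bin is unknown.

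Chromosomes in interphase nuclei are divided into the A compartment, which is gene-rich and mostly open, and the B compartment, which is gene-poor, more condensed and often found at the nuclear lamina. Regions of the same compartment contact each other more than regions of opposite compartments, along a chromosome and between chromosomes, and PC1 places each bin on that axis: above 0 is A and below 0 is B. During myogenesis, myoblasts leave the cell cycle, fuse and assemble sarcomeres under regulators of the MyoD and Mef2 families. MyoD binds the E-box, a short motif of the form CANNTG, with CAGCTG among its preferred forms.

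The member bins held the start sites of 14 genes of 7 muscle lists described further on. Among the sarcomere, myogenic regulator, calcium handling, neuromuscular junction and fusion genes with a promoter in the RefSeq table used, the 5 with the largest rise of their bin were taken, with Ncam1, Cacng1, Neb and Lmod3 passed over as having no entry. For these 5, the 250 bases before the RefSeq transcription start are shown to place the bins on the genome and to show where E-boxes lie in these starts. The capitals mark matches to CANNTG, which reads the same on both strands and contains CAGCTG. In GRCm38.p6, the Ttn stretch was chr2:76982548-76982797 (minus strand), the Itgb1 stretch chr8:128685404-128685653 (plus strand), the Cd81 stretch chr7:143052500-143052749 (plus strand), the Myl3 stretch chr9:110763428-110763677 (plus strand) and the Cacna1s stretch chr1:136052561-136052810 (plus strand).
Ttn: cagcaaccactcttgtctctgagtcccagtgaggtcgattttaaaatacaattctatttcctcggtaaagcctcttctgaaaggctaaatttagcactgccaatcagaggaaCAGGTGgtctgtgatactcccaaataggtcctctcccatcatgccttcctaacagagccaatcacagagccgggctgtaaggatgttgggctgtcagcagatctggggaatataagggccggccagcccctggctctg
Itgb1: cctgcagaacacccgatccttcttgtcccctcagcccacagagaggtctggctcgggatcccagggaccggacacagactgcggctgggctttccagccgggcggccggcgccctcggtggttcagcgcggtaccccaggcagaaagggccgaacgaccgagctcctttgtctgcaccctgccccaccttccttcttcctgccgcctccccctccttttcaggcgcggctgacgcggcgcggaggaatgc
Cd81: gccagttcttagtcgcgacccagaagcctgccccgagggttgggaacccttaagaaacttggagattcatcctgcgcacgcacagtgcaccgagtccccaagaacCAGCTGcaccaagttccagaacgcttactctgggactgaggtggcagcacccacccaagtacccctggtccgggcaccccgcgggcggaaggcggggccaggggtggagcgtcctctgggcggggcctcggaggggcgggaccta
Myl3: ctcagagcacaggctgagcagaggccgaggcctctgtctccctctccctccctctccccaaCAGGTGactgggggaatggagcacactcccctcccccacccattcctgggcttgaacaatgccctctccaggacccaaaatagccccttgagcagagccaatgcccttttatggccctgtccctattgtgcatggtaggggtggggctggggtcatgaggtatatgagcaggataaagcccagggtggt
Cacna1s: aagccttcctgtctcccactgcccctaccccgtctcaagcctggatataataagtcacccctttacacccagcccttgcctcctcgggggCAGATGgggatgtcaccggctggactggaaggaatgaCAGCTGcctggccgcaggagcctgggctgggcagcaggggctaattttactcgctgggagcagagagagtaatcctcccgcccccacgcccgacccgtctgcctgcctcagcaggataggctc

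The stretch of Ttn held 1 E-box match (CAGGTG) and that of Itgb1 held 0. The stretch of Cd81 held 1 match (CAGCTG), that of Myl3 held 1 (CAGGTG) and that of Cacna1s held 2 (CAGATG and CAGCTG). Over all promoters of protein-coding genes in the 4727 bins, 61.9% of 18839 stretches of this length held CANNTG, against 58.9% of 1125 in the member bins. CAGCTG was found in 12.5% of all stretches and in 13.5% of those in member bins. HindIII sites (AAGCTT) were in 6.67% of the stretches in member bins and 5.48% of all. CANNTG was thus a little less frequent in member bins than in all bins, and CAGCTG and AAGCTT a little more.

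Rises ran from 0.446 to 1.47 SD over the members, with a median of 0.576 SD. Over all bins the rise had an SD of 0.262 and a median of -0.00647, and 48.7% of bins had a rise above 0. Just inside the threshold, a chromosome 10 bin (chr10:81500001-82000000) had a rise of 0.447 SD, and the last member, a chromosome 4 bin (chr4:141500001-142000000), had 0.446 SD. Between them lay the bin of Ccdc68, also with a rise of 0.446 SD. The nearest bins outside had rises of 0.445 SD (chr14:78500001-79000000), 0.443 SD (chr6:72000001-72500000) and 0.443 SD (chr3:52000001-52500000), so the threshold fell within a continuous range of values.

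Most members did not cross from B to A. In myoblasts 142 of the 236 already had a positive PC1, 68 went from B in myoblasts to A at day 3, and 26 remained in B at day 3. Over all bins, 2.75% went from B to A, which was 130 bins, and the rule used this same contrast. The members thus held 68 of those 130 bins, while the other 62 had smaller rises. The median scaled PC1 of the members was 0.235 SD in myoblasts (lowest -1.32, highest 1.75) and 0.901 SD at day 3 (lowest -0.862, highest 2.42). For all bins the medians were -0.350 and -0.412 SD. The members lay mostly in the middle of the myoblast range, with 90 between -1 and 0 SD and 106 between 0 and 1 SD, and 51 (21.6%) were in the top 20% of their chromosome in myoblasts. At day 3, 121 members (51.3%) were in the top 20%.

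**Figure D1:**
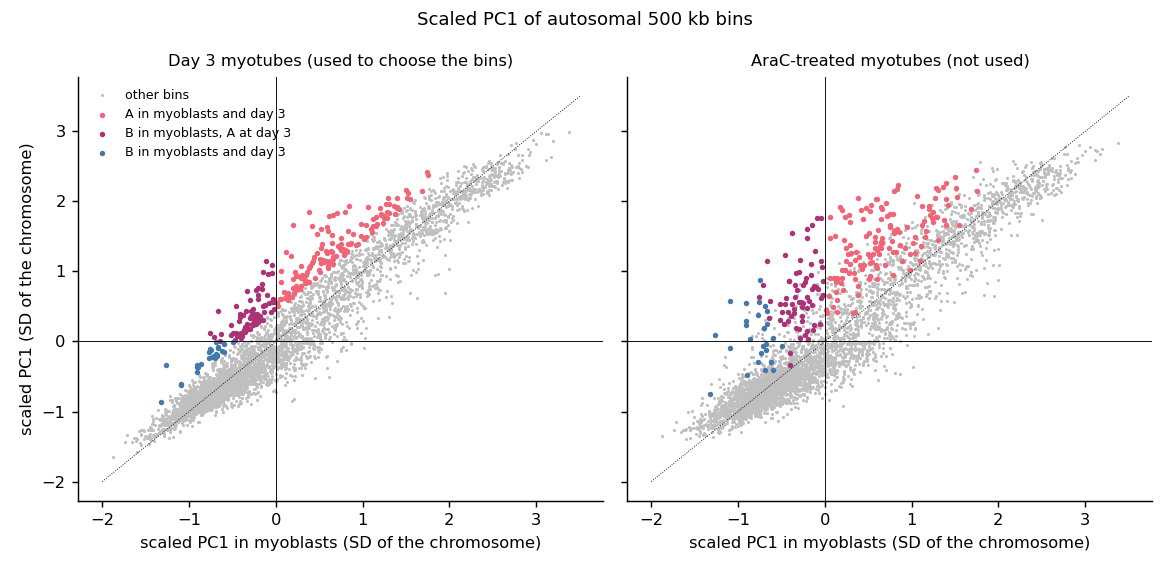
Scaled PC1 of 4727 autosomal bins in myoblasts (horizontal axis, SD of the chromosome) against day 3 myotubes (left) and AraC-treated myotubes (right), with the 236 chosen bins coloured by compartment and the other bins grey; the dotted line marks equal values. On the left the distance above the line is what chose the bins, with 142 bins at positive values in both conditions and 68 moving from below to above 0. On the right 222 of the coloured bins lie above 0.

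Levels in the AraC-treated myotubes were not used to choose the bins. The median scaled PC1 of the members was 1.10 SD in AraC-treated myotubes (lowest -0.75, highest 2.44), against -0.431 SD over all bins. In that condition 222 of 236 members (94.1%) were in A, compared with 35.5% of all bins. For the other 1514 bins that were in A at day 3, this was 1372 (90.6%), with a median of 1.10 SD. The members therefore stood as high in AraC-treated myotubes as other A bins, whereas in myoblasts the members' median was 0.235 SD and that of the other A bins 1.07 SD. The rule favours a low myoblast level and a high day 3 level. Scaled PC1 at day 3 and after AraC correlated at 0.982, so the AraC levels are not independent of the choice.

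Levels in AraC-treated myotubes followed the 3 classes of members. The 142 members in A at both earlier stages had a median of 0.61 SD in myoblasts, 1.29 at day 3 and 1.44 in AraC-treated myotubes, and all 142 were in A there. The 68 bins that moved from B to A had medians of -0.273, 0.359 and 0.62 SD, and 66 of the 68 were in A after AraC. The 26 bins still in B at day 3 had medians of -0.742, -0.204 and 0.0446 SD, and 14 of the 26 were in A after AraC. For bins between 0 and 1 SD at day 3, the 104 members had a median of 0.749 SD in AraC-treated myotubes (quartiles 0.459 and 1.02) and the 721 other bins 0.372 SD (quartiles 0.0703 and 0.707), with day 3 medians of 0.547 and 0.418 SD. For bins between 1 and 2 SD at day 3, the 97 members had a median of 1.56 SD and the 505 other bins 1.49 SD, with day 3 medians of 1.40 and 1.51 SD. For bins between 2 and 3 SD, the 9 members had 2.14 SD and the 288 other bins 2.22 SD, with day 3 medians of 2.11 and 2.27 SD. Members thus had the higher AraC median in the first pair of ranges and the lower one in the last, while their day 3 medians also differed from those of the other bins. The comparison of AraC-treated myotubes with myoblasts shares the myoblast matrix with the rule, and that with day 3 shares the day 3 matrix, so the levels are given side by side and the differences were not counted.

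Members were gathered in the last part of the chromosomes, away from the centromere. Mouse autosomes carry the centromere at their start, and the distal end is the end with the highest coordinates. Of the 236 members, 61 (25.8%) lay within 10 Mb of the last bin with data, against 371 of 4727 bins (7.85%), and 99 (41.9%) lay within 20 Mb, against 15.8%. In the last 5 Mb, 35 of 187 bins (18.7%) were members. This share was 14.1% from 5 to 10 Mb, 10.1% from 10 to 20 Mb, 5.55% from 20 to 40 Mb, 4.44% from 40 to 80 Mb and 1.7% further in, so it fell at each step, where 4.99% of all bins were members. The 236 bins with the largest falls showed no such gathering, with 11 (4.66%) in the last 10 Mb and a median distance of 86.8 Mb from the end against 29.2 Mb for the members and 63 Mb for all bins. The first 10 Mb held 16 members (6.78%) and 35 of the largest falls (14.8%), against 7.89% of all bins. The falls were thus more frequent at the opposite end of the chromosomes.

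**Figure D2:**
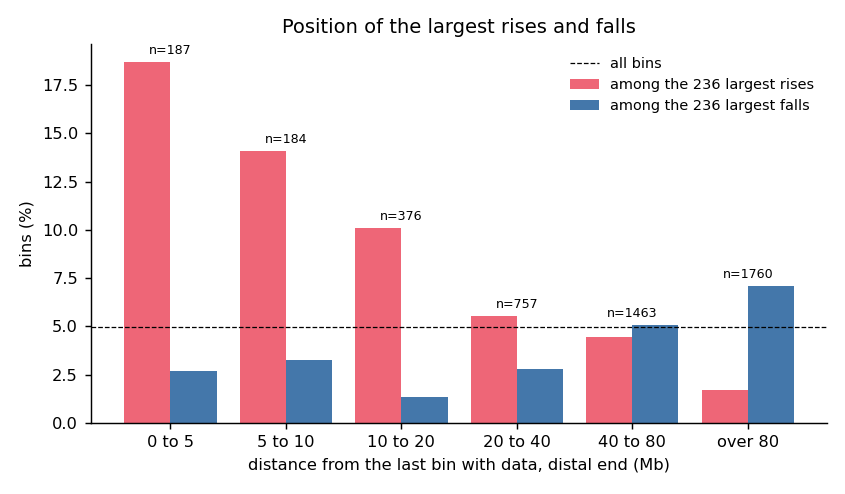
Share of bins (vertical axis, %) that were among the 236 largest rises (red) or the 236 largest falls (blue) by distance from the last bin with data at the distal end of the chromosome (horizontal axis, Mb), with the number of bins above each pair; the dashed line is the share over all bins, 4.99%. The red bars go down from 18.7% in the last 5 Mb to 1.7% beyond 80 Mb, while the blue bars go from 2.67% to 7.1%.

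The distal gathering was spread over chromosomes, but unevenly. Members lay in the last 10 Mb of 14 of 19 autosomes, and on 13 of 19 the share of members in the last 10 Mb was above the share on the whole chromosome. Chromosome 9 gave 13 of the 61 distal members and chromosome 8 gave 9, whereas chromosomes 3, 11, 12, 14 and 18 gave 0. Without chromosome 9 the share of members in the last 10 Mb was 22.5%, and without chromosome 8 it was 24.1%. Chromosomes 3 and 9 had the most members, with 23 each (7.37% and 9.47% of their bins), followed by chromosome 8 with 20 (8.03%), while chromosomes 11 and 19 had 6 each (2.53% and 5.13%). The correlation of scaled PC1 with position was higher at day 3 than in myoblasts on all autosomes but chromosomes 3 and 17. On chromosome 19 it barely differed (-0.0132 and -0.0131). On chromosome 3 it was 0.215 in myoblasts, 0.171 at day 3 and 0.168 after AraC, and on chromosome 17 it was -0.279, -0.306 and -0.399. The correlation on chromosome 8 was 0.208 in myoblasts, 0.388 at day 3 and 0.466 after AraC over 249 bins that share a matrix, and on chromosome 9 it was 0.103, 0.277 and 0.375 over 243 bins. With a linear trend along the chromosome taken out of scaled PC1 in each condition, an alternative chosen after seeing the data, 193 of the 236 members were still among the largest 5% and 44 of the 236 bins then chosen lay in the last 10 Mb. The distal count without the slope was thus lower than the 61 found with it.

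The 236 members formed 121 runs of adjacent bins. Of these, 71 were single bins, and 50 runs of 2 or more bins held the other 165 members. There were 15 runs of 4 or more bins, with 88 members. The rise fell off around the members: bins 0.5 Mb away that were not members themselves had a median rise of 0.259 SD (235 neighbours), those 1 Mb away 0.172 SD and those 2 Mb away 0.0722 SD. Members lay closer to compartment edges in myoblasts than all bins did, as did the largest falls. These edges are set by PC1 in myoblasts, which the rule used, so the closeness describes the choice and is not a separate trait. A bin of the opposite sign was the direct neighbour of 123 members (52.1%), against 40.7% of the largest falls, 27.4% of all bins and 30.8% of the other A bins.

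The longest run, of 14 bins or 7 Mb, lay near the end of chromosome 9 (chr9:113000001-120000000). Its median scaled PC1 was -0.56 SD in myoblasts, 0.26 SD at day 3 and 0.841 SD after AraC. In myoblasts 12 of its bins were in B, between -1.09 and -0.0442 SD, and the other 2 were in A. At day 3, 4 of those 12 bins were still in B. The bin of Tgfbr2, the type II receptor for TGF-beta ligands (chr9:116000001-116500000), had -0.0442 SD in myoblasts, 0.975 SD at day 3 and 1.16 SD after AraC. The bin of Acvr2b, a receptor for activins and myostatin (chr9:119000001-119500000), had 0.226, 0.992 and 1.45 SD. Both receptor genes thus lay in the same run, on either side of the bin with the largest rise in it. That bin, with the starts of Ctdspl, Golga4 and the integrin subunit Itga9 (chr9:118500001-119000000), had -0.67, 0.432 and 1.15 SD.

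The next run, of 10 bins, lay inside chromosome 3 (chr3:97000001-102000000), 58 Mb from its end. Its median was 0.258 SD in myoblasts, 0.897 SD at day 3 and 1.78 SD after AraC, so the AraC level stood further from day 3 here than in the other long runs. The bin of Notch2, a receptor of the Notch pathway, and Phgdh, an enzyme of serine synthesis, had 0.292, 1.08 and 1.71 SD. The lowest bin of the run held the Hsd3b steroid enzyme genes, with -0.744 SD in myoblasts, -0.12 SD at day 3 and 0.881 SD after AraC. It was the only bin of this run that was in B at day 3, and it too was in A after AraC.

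Chromosome 8 ended in a run of 9 bins (chr8:125000001-129500000) that included the last bin with data. Its medians were 0.412, 1.41 and 1.87 SD. The last 6 bins of chromosome 6 (chr6:146500001-149500000) also formed a run, with medians of 0.595, 1.61 and 2.03 SD. A run of 6 bins on chromosome 11 (chr11:107000001-110000000) had medians of -0.275, 0.377 and 0.5 SD and so stood lowest of the 5 longest runs after AraC, with 0 of its bins in B there. It held Cacng1, the gamma subunit gene of the muscle calcium channel, and Axin2, a feedback inhibitor of Wnt signalling. Another run of 6 bins, on chromosome 13 (chr13:100500001-103500000), had medians of 1.13, 1.85 and 1.85 SD and was in A throughout.

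**Figure D3:**
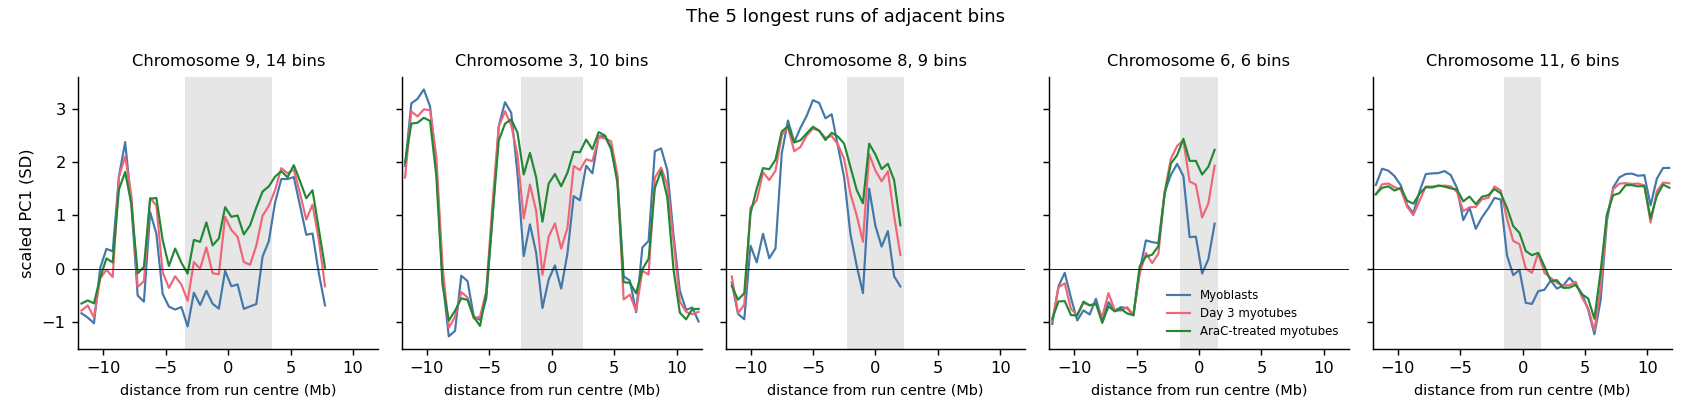
Scaled PC1 (vertical axis, SD of the chromosome) in myoblasts (blue), day 3 myotubes (red) and AraC-treated myotubes (green) around the 5 longest runs of chosen bins, by distance from the centre of the run (horizontal axis, Mb); the grey band marks the run, and lines stop where the chromosome's bins with data stop. Within each band the blue line lies below the red one, as the choice requires, and on chromosome 3 the green line has a median of 1.78 SD against 0.897 SD for the red one.

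The 15 bins with the largest rise lay on 7 chromosomes, 7 of them on chromosome 8. The largest rise of all was in a bin with no protein-coding start, inside the gene of the cell adhesion protein T-cadherin, Cdh13 (chr8:118500001-119000000). Its scaled PC1 was 0.194 SD in myoblasts, 1.67 SD at day 3 and 1.87 SD after AraC. The bin before it, which holds the start of Cdh13 (chr8:118000001-118500000), had 0.655, 1.81 and 1.89 SD. The bin after it, with Hsbp1, Mlycd (malonyl-CoA decarboxylase, an enzyme of fatty acid metabolism), Necab2 and Osgin1 (chr8:119000001-119500000), had 0.38, 1.84 and 2.05 SD. All 3 neighbours were in A in myoblasts, and none changed sign.

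The third largest rise was that of the bin of Ttn, which encodes the giant spring protein of the sarcomere (chr2:76500001-77000000, also with Fkbp7, Pjvk, Plekha3 and Prkra). It had -0.114 SD in myoblasts, 1.15 SD at day 3 and 1.29 SD after AraC. On chromosome 10 the bin of Nuak1, an AMPK-related kinase (chr10:84000001-84500000), had -0.0451, 1.09 and 1.76 SD. Both crossed from just below 0 to well inside A. At the end of chromosome 8, the bin inside the polarity gene Pard3 (chr8:127500001-128000000) had 0.412, 1.64 and 1.87 SD. The next bin, with Nrp1, a co-receptor for semaphorins and VEGF (chr8:128000001-128500000), had 0.706, 1.83 and 1.97 SD. The bin of Itgb1, the beta-1 subunit shared by many matrix receptors (chr8:128500001-129000000), had -0.146, 0.989 and 1.66 SD. Of these 3 adjoining bins, that of Itgb1 was the only one in B in myoblasts.

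Of the remaining bins of this set, that of Dclk1 and Ccna1 on chromosome 3 (chr3:55000001-55500000) had 0.608, 1.79 and 1.6 SD, and was the only one of the 15 that was lower after AraC than at day 3. The last bin of chromosome 6 (chr6:149000001-149500000), with Amn1, Bicd1, Dennd5b, Etfbkmt and Resf1 among its genes, had 0.843, 1.94 and 2.23 SD. The bin of Hsd17b2, Mphosph6 and Sdr42e1 (chr8:117500001-118000000) had 0.117, 1.28 and 1.51 SD. A further 3 held no protein-coding start. On chromosome 13 such a bin (chr13:101000001-101500000) had 0.517, 1.61 and 1.86 SD, and on chromosome 3 (chr3:85000001-85500000) the values were 0.477, 1.54 and 1.91 SD. Inside the RNA-binding protein gene Rbms3 on chromosome 9 (chr9:116500001-117000000), they were -0.334, 0.727 and 0.975 SD. Bins with no start of their own made up 5 of these 15.

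**Figure D4:**
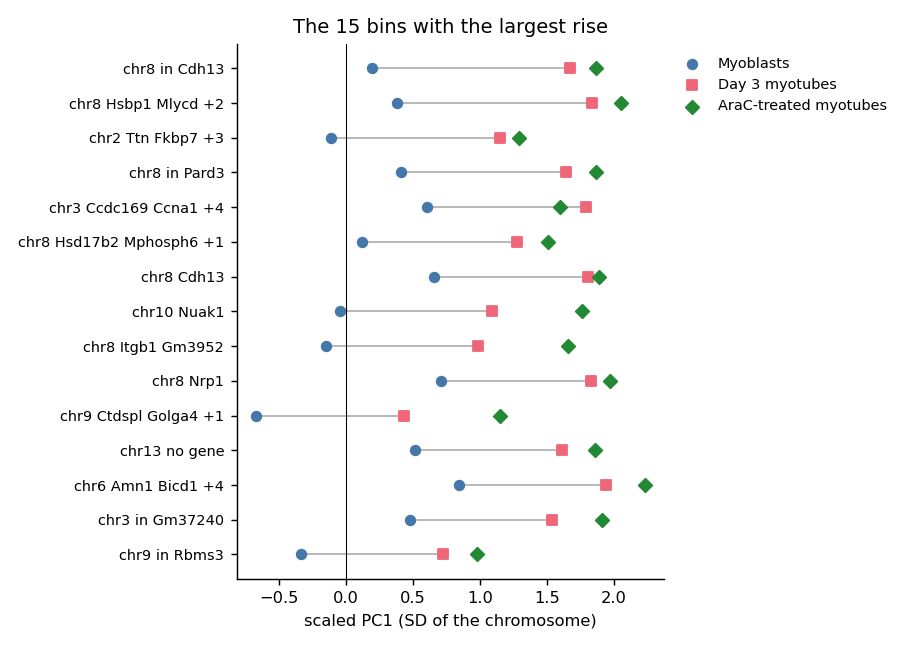
Scaled PC1 (horizontal axis, SD of the chromosome) in myoblasts (blue circles), day 3 myotubes (red squares) and AraC-treated myotubes (green diamonds) for the 15 bins with the largest rise, in order from the top; each is named by its chromosome and by up to 2 genes that start in it, or by the gene it lies inside. Green lies to the right of red in each row except that of Ccna1 on chromosome 3, at 1.6 against 1.79 SD.

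After AraC, the highest members were on chromosomes 6, 8 and 14. The bin of Itpr2, an intracellular calcium channel, and 9 further genes (chr6:146500001-147000000) had 1.74 SD in myoblasts, 2.42 SD at day 3 and 2.44 SD after AraC. That of Irf2bp2, Rbm34 and Tomm20 (chr8:126500001-127000000) had 1.51, 2.16 and 2.35 SD, and that of Ccdc122, Enox1 and Lacc1 (chr14:77000001-77500000) had 1.39, 2.04 and 2.27 SD. All 3 were already well inside A in myoblasts. The lowest was a chromosome 1 bin of predicted genes and B020011L13Rik (chr1:117500001-118000000), with -1.32, -0.862 and -0.75 SD, in which 67.0% of bases were masked as repeats. The other low bins were on chromosome 2, those of Top1 and Plcg1 (chr2:160500001-161000000; -0.891, -0.363 and -0.477 SD) and of Pck1 and Zbp1 (chr2:173000001-173500000; -0.689, -0.182 and -0.406 SD). These 3 remained in B throughout.

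The bins' partners on their own chromosome were compared by correlating a bin's row (Pearson's r, the bin itself left out) in 1 condition with the same row in another. Between myoblasts and day 3 the median r was 0.662 for the members and 0.877 for all bins. An r below 0 was found for 36 members (15.3%), against 3.26% of all bins and 78 (33.1%) of the 236 largest falls, whose median r was 0.293, and this contrast is the one that chose them. Between day 3 and AraC the median r was 0.94 for the members and 0.947 for all bins. The lowest r between myoblasts and day 3 were those of the bin of Axin2 (chr11:108500001-109000000) at -0.525, the bin of Ttn at -0.522 and the bin of Col12a1, a fibril-associated collagen (chr9:79500001-80000000), at -0.411. For Ttn r was 0.973 between day 3 and AraC, so its profile was negatively correlated in the first pair of conditions and nearly identical in the second. Its scaled PC1 in myoblasts was only -0.114 SD, so the negative r does not show a strong B profile there.

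Entries between chromosomes did not enter PC1 directly, but they come from the same matrices and the same contrast. Each entry is itself a correlation of interaction profiles, and the A and B partners were picked by PC1. With PC1 taken from correlation with other autosomes, 208 of the 236 members were chosen again. The values below thus describe the members further and are not separate evidence of their rise. Each bin's mean correlation with the top 20% of PC1 on all other autosomes, minus that with the bottom 20%, was taken in units of the SD of all values between chromosomes in that condition. The members' median of this A minus B value was 0.316 SD in myoblasts, 1.83 SD at day 3 and 2.49 SD after AraC. Over all bins it was -0.958, -1.47 and -1.42 SD, and for the other bins in A at day 3 it was 2.46, 2.31 and 2.36 SD. The bins with the largest falls had 0.704, -0.912 and -0.919 SD, so they stood above the members in myoblasts and below them in both myotube conditions. The change lay on both sides: the members' median correlation with A bins of other chromosomes went from 0.357 to 1.19 and 1.55 SD, and that with B bins from 0.044 to -0.665 and -0.941 SD. By class, the bins moving from B to A had -0.766, 0.668 and 1.43 SD, those in A at both stages 1.22, 2.8 and 3.26 SD, and those in B at both stages -1.84, -0.921 and -0.114 SD. Members on different chromosomes had a mean correlation with each other of 0.369 SD in myoblasts, 0.609 SD at day 3 and 0.909 SD after AraC over 26141 pairs, whereas all pairs had 0.118, 0.0834 and 0.0417 SD. The members were nearer to strong A bins (1.17 SD at day 3) than to one another. Strong A bins had 2.82, 2.57 and 2.57 SD with each other.

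**Figure D5:**
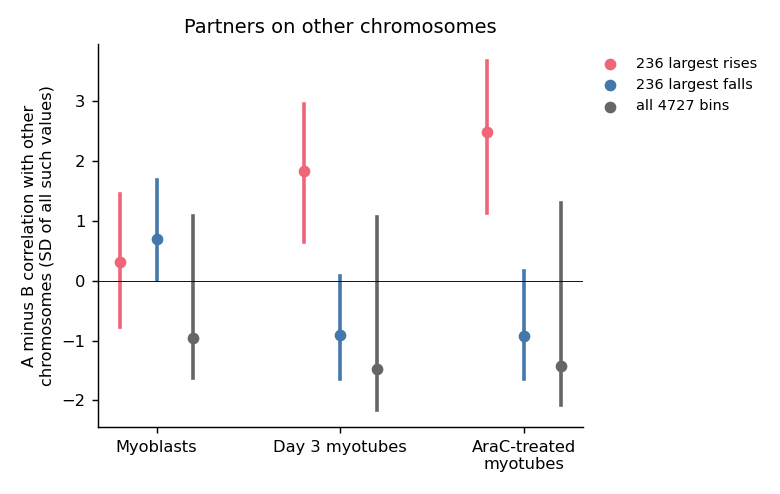
Mean correlation of a bin with A bins minus that with B bins of all other autosomes (vertical axis, in SD of all correlations between chromosomes of the condition) in the 3 conditions, as median (point) and quartiles (line) over bins, for the 236 largest rises (red), the 236 largest falls (blue) and all 4727 bins (grey). The red medians go from 0.316 to 1.83 and 2.49 SD, while the grey ones stay between -1.47 and -0.958 SD.

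In gene number the members lay between the other A bins and all bins, and in base composition they were close to the other A bins. They had a median of 3 protein-coding TSSs per bin (0 to 26), against 5 for the other A bins at day 3 and 2 for all bins. Of the members, 27 (11.4%) had no protein-coding TSS, against 24.3% of all bins and 7.53% of the other A bins, and 12 of the 27 lay inside the body of a gene that starts elsewhere. The median GC content was 44.1% (44.3% in the other A bins and 41.7% in all bins). HindIII sites, which set the number of fragments a bin can give, numbered 30.7 per 100 kb in the members, 30.4 in the other A bins and 32.4 in all bins. The 5 members with the most TSSs had 20 to 26 of them and were in A in all conditions. That of Cdk4, Gli1 and Ddit3 (chr10:127000001-127500000) had 1.54, 2.03 and 1.67 SD, and that of Cdk2, Erbb3 and Itga7 (chr10:128500001-129000000) had 0.979, 1.68 and 1.26 SD. The bin of E2f4 and Cbfb (chr8:105000001-105500000) had 1.15, 1.77 and 1.73 SD. The bin of Dctn1 and Tet3 (chr6:83000001-83500000) had 1.69, 2.15 and 1.9 SD, and that of Srebf2 (chr15:82000001-82500000) had 0.628, 1.14 and 1.25 SD.

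In the main setting the share of muscle genes in the member bins was near that of all genes. In most of the other settings it stood further above that of all genes. These are counts of genes, and listed genes can share a bin: the 200 genes below started in 178 bins. The number of bins behind the muscle genes of the other settings was not counted. Of all 20333 protein-coding genes, 1144 started in member bins, which is 5.63%. Of 200 genes on 7 muscle lists, 14 (7%) did, each in a bin of its own, and over all 200 the median rise was 0.0543 SD, with 111 above 0. Their bins had a median of 0.943 SD in myoblasts, so most muscle genes already lay in A. In 236 bins chosen without division by the SD, the count was 33 (16.5%, against 11.5% of all genes), without centring 26 (13%, against 5.48%), with the trend along the chromosome removed 24 (12%, against 5.38%) and with even-numbered partners 23 (11.5%, against 5.71%). With ranks within the chromosome it was 20 (10%, against 4.08%), and among bins over 10 Mb from both ends 23 (11.5%, against 4.56%). It was 13 (6.5%, against 5.71%) with odd-numbered partners and 6 (3%, against 2.53%) with the largest 2.5% of bins. A bin with 5 myosin heavy chain genes, singled out after its values were seen, lay just outside the members with a rise of 0.436 SD (Myh1, Myh2, Myh3, Myh4 and Myh8; chr11:67000001-67500000; -1.22, -0.781 and -0.542 SD). Among 64 sarcomere genes, 4 were in members (6.25%). The bin of Ttn is given above. That of Neb, which encodes the thin filament ruler nebulin (chr2:52000001-52500000), had -0.18 SD in myoblasts, 0.359 SD at day 3 and 0.573 SD after AraC. The bin of Myl3, a myosin light chain of slow and ventricular muscle (chr9:110500001-111000000), had 0.653, 1.18 and 1.33 SD, and that of Lmod3, a nucleator of thin filaments (chr6:97000001-97500000), had -0.765, -0.237 and -0.288 SD. Ttn and Neb thus moved from B to A, Myl3 stayed in A and Lmod3 in B.

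Of 31 myogenic regulators 2 were in members, Tcf4 and Dpf3, a subunit of the BAF remodelling complex that binds acetylated histones. The bin of Dpf3 (chr12:83000001-83500000) had -1.1 SD in myoblasts, -0.622 SD at day 3 and 0.571 SD after AraC. Over the 31 regulators the median rise was -0.133 SD and 9 had a rise above 0. Calcium handling gave 3 of 32 genes. The bin of Cacna1s, the pore subunit of the muscle voltage sensor (chr1:136000001-136500000), had 1.24, 1.76 and 1.71 SD, that of its partner Cacng1 (chr11:107500001-108000000) had -0.125, 0.52 and 0.799 SD, and that of Jph2, which ties the reticulum to the cell membrane (chr2:163000001-163500000), had -0.494, -0.0102 and -0.0633 SD. The 2 channel subunits thus started on different sides of 0. Of 21 fusion and adhesion genes 2 were in members, Itgb1 and the tetraspanin Cd81 (chr7:143000001-143500000), whose bin had 0.533, 1.4 and 1.95 SD. The other lists gave 1 gene each: Ncam1, an adhesion molecule, of 13 junction genes (chr9:49500001-50000000; 0.38, 1.05 and 0.792 SD), Itga7, a laminin receptor subunit, of 15 genes of the dystrophin-associated complex, and the glycolytic kinase Hk2 of 24 energy genes (chr6:82500001-83000000; -0.398, 0.123 and -0.17 SD). The bin of Hk2 was 1 of 2 members in A at day 3 and in B after AraC.

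The cell cycle, TGF-beta, Wnt and Notch and matrix lists had larger shares than the 5.63% of all genes, in small numbers. The share of the growth factor list, 6.9%, was nearer to that of all genes. Of 59 cell cycle and replication genes, 8 (13.6%) were in members: Ccnb1, Cdk2, Cdk4, Cdkn1c, Cdkn2c, E2f1, E2f4 and Rrm1. All but Cdkn2c were in A in myoblasts, and the list's median rise was 0.0641 SD. The bin of the inhibitor gene Cdkn2c (chr4:109500001-110000000) had -0.232, 0.252 and 0.0969 SD. The inhibitor Cdkn1c shared the bin of Cd81, and Igf2, the growth factor gene of the same imprinted region, was in the bin before it (chr7:142500001-143000000; 0.756, 1.48 and 1.83 SD). Of 31 TGF-beta family genes 4 (12.9%) were in members: Tgfbr2, Acvr2b, Smad9 and the activin and myostatin antagonist Fst. The bin of Fst (chr13:114000001-114500000) had -0.256, 0.387 and 0.546 SD. The median rise over that whole list was -0.0452 SD, with 13 of 31 above 0, so these 4 were not typical of it. Of 44 Wnt and Notch genes 5 (11.4%) were in members: Axin2, Sfrp2, Notch2, Dll1 and Heyl. Of 29 growth factor pathway genes 2 (6.9%) were in members, Igf2 and Pdgfa. The median rise over that list was -0.0632 SD, with 8 of 29 above 0. Of 40 matrix genes 4 (10%) were in members, Col12a1, Lama5, Mmp14 and Postn. Over the matrix list the median rise was -0.0778 SD, with 15 of 40 above 0. The genes in members were thus not typical of either list.

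Genes typical of other cell types had few loci in the members, on lists too short to set apart from the 5.63% of all genes. Of 19 neuronal, 12 adipocyte, 13 cartilage and bone and 12 blood cell markers, 0 were in members. Of 10 endothelial markers 1 was, Erg (chr16:95500001-96000000; -0.206, 0.657 and 0.635 SD), and of 16 cardiac and smooth muscle markers 1, Nppa. These lists mark loci and not cells. Olfactory and vomeronasal receptor genes, which lie in large B domains, gave 8 of 1385 genes (0.578%), and protocadherin, replication-dependent histone and keratin genes gave 0 of 66, 0 of 66 and 0 of 113. The 66 histone genes lay in 5 bins, and the median rise was -0.568 SD over the genes, not over the bins. Of 372 solute carriers 27 (7.26%) were in members, of 378 genes named Zfp 17 (4.5%) and of 78 cytosolic ribosomal protein genes 5 (6.41%).

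A rise in scaled PC1 is relative to the chromosome. PC1 took up a median of 39.4% of the variance of a chromosome's matrix in myoblasts, 71.3% at day 3 and 63.5% after AraC, and the SD of PC1 before scaling was 0.859, 1.61 and 1.36. When PC1 was not divided by its SD, 39 of the 236 members were among the largest 5%, and 2 of the bins then chosen went from B to A. With ranks within the chromosome in place of values, 89 of the 236 members were still chosen. On chromosome 13, which held 12 members, the correlation of PC1 with TSS number that set its sign was 0.131 in myoblasts, 0.0627 at day 3 and 0.0512 after AraC, so A and B are only weakly fixed there. The part of these differences in the rises was not tested.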

How the data were processed

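Hi-C matrices were analysed that pool 2 replicates in each of 3 groups, 6 samples in all. According to the methods, the authors mapped reads to mm10 with Bowtie and HiCUP and used HOMER to normalize interaction profiles; the deposited score values are Pearson correlation coefficients of those profiles between 500 kb bins, 1 matrix per condition, and versions of Bowtie and HOMER were not given in the sources used here. Bins with a diagonal above 0.5 in all 3 matrices were kept, on autosomes only. PC1 was the first component of the column-centred block of each chromosome. TSSs and gene bodies were from GENCODE M21 on GRCm38.p6, which has the coordinates of mm10, and promoter sequences were from RefSeq. A bin was assigned each gene whose TSS lay in it. Positions were measured from the first and last bins with data. Python 3.11.15, NumPy 2.4.6 and pandas 2.3.3 were used, and PC1, its sign and the choice of bins were tested on simulated data. No column of the matrices was left without a group.

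The members and gene lists were chosen with earlier results of these data known. Described bins were the 15 largest rises, the 3 bins on each side of the threshold, the 5 longest runs, the 3 highest and 3 lowest after AraC, the 3 lowest profile correlations and the 5 with most TSSs; genes were those starting in such bins, up to 5 a bin, and listed genes in members. Genes of larger bins, the chromosome 13 run and values of single bins within runs were picked after their values were seen. With 1 pooled matrix per condition, no test was possible and values carry no error. Alternatives changed the scaling, centring, partners, size of the set and smoothing.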

Additional observations from a re-analysis of the deposited data

How the results depend on the processing

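No paired analysis was possible because the 2 replicates of each condition were pooled in the deposited matrices, and for the same reason no replicate could be left out. The count of members that were higher after AraC than in myoblasts was not run, since both comparisons share the myoblast matrix. Without division by the SD, 39 of the 236 members were kept, 2 chosen bins went from B to A, 33 muscle genes fell in chosen bins (14 in the main setting) and 9 chosen bins had no TSS (27 in the main setting). With ranks, 89 members were kept and 62 chosen bins had no TSS. Muscle genes numbered 26 without centring (13% of them, against 5.48% of all genes), 23 with even-numbered partners (11.5%, against 5.71%) and 24 with the trend along the chromosome removed (12%, against 5.38%). With the largest 2.5% of bins, all 118 chosen bins were members by construction, with 43 from B to A, 6 muscle genes, 12 bins without a TSS and 40 in the last 10 Mb. With the largest 10%, there were 42 muscle genes (21%, against 11.6%) and 58 bins without a TSS. Among bins over 10 Mb from both ends, 154 were kept, with 42 from B to A and, by construction, 0 in the last 10 Mb. Muscle genes there numbered 23 (11.5%, against 4.56% of all genes). The removal of the trend, the limit to bins over 10 Mb from the ends and the count in the last 10 Mb, were added after seeing the data. In the other settings 172 to 236 members were kept, 52 to 89 bins went from B to A, 42 to 90 lay in the last 10 Mb, 13 to 21 muscle genes and 23 to 28 bins without a TSS were found. The upper ends of 236, 89 and 90 came from the largest 10%, which took 473 bins and kept all members by construction. Of these 5 counts the number of muscle genes moved in the most settings, and the cause was not tested. Depth per bin could not be weighed, since the matrices hold no read numbers. The paper reports read pair totals that differ between the conditions. It also reports a lower correlation between the replicates of myoblasts than between those of either myotube condition. The part of these differences in the rises was not tested.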
